A study of Mus musculus with 8 samples.

Results

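The transcription factor genes of the induction cocktails were followed across 8 mouse cell samples, each measured on 1 Illumina bead array. The 6 genes were *Pou5f1* (*Oct4*), *Sox2*, *Klf4* and *Myc*, which make up the iPSC cocktail, *Pou3f4* (*Brn4*), which takes the place of *Oct4* in the iNSC cocktail, and *Tcf3*, which the paper does not name in the cocktail of any of these cells. All probes that carry one of these symbols were taken, without regard to their values. That gave 10 probes for 5 of the 6 genes, out of 25697 probes for 16593 named genes. *Tcf3*, which encodes the E proteins E12 and E47, had no named probe, and 1719 probes carry no gene name here.

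The cells of interest were 2 clones of iNSC-derived iPSCs, iNdiPSC-1 and iNdiPSC-4, made from induced neural stem cells (iNSCs) with retroviral *Oct4* and *Klf4*. The clone numbers are those of the labels, and the paper numbers the second clone differently. The control pluripotent lines were NSC 2F iPSCs, made from brain-derived neural stem cells (NSCs) with *Oct4* and *Klf4*, MEF 4F iPSCs, made from mouse embryonic fibroblasts (MEFs) with *Oct4*, *Sox2*, *Klf4* and *Myc*, and embryonic stem cells (ESCs). The somatic samples were iNSCs, made from MEFs with *Brn4*, *Sox2*, *Klf4* and *Myc*, and also NSCs and MEFs. By the labels the background strain is C3H for the iNSCs and both clones and B6D2F1/J for the other 5 samples, so the MEF array is not of the strain the iNSCs came from. The labels also mark the iNSCs as pluripotent, but the paper treats them as a somatic cell type and this was followed. The iPSC lines and clones were grown on feeder cells. Each iPSC array is thus 1 line or clone that received factor transgenes, and the 2 clones come from the same iNSCs.

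OCT4 and SOX2 bind DNA side by side at a shared element near many genes of pluripotent cells, including their own. KLF4, a zinc finger protein of GC-rich sites, acts beside them and with its relatives KLF2 and KLF5 in mouse ESCs, while MYC, paired with MAX at E-boxes, drives growth and ribosome genes. In neural stem cells SOX2 instead works with POU factors of the brain such as BRN4.

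*Pou5f1* and *Pou3f4* encode proteins of the same POU family, and no array had both genes detected. The 250 bases before their annotated starts are shown for this reason, from RefSeq (GRCm38.p6), 5′ to 3′ on the strand of the gene. The *Pou5f1* window is chr17:35505782-35506031 (+ strand) and the *Pou3f4* window is chrX:110814129-110814378 (+ strand). Capitals mark a match to the GC box GGGGCGGGG, a site of SP and KLF factors.
Pou5f1: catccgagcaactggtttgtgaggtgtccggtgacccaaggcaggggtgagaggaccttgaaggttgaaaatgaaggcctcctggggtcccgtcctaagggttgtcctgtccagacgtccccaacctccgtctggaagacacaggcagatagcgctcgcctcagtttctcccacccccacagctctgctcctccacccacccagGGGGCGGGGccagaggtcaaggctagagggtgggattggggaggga
Pou3f4: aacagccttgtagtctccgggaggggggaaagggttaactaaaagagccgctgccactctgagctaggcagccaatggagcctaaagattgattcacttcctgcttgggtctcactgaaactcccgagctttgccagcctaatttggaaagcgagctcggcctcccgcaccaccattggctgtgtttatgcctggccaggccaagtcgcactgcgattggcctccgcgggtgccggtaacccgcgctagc
RefSeq lists a second start for *Pou5f1*, whose window (chr17:35508557-35508806, + strand; GC content 45.6%) held none of the 4 motifs and is not printed. The GC box in the printed *Pou5f1* window lies 46 to 38 bases before the start, and the *Pou3f4* window held none of 4 motifs searched on both strands. The others were the POU octamer ATGCAAAT, the SOX core CTTTGT and the E-box CACGTG. Of 32851 windows of this length, 10.4% held the GC box, 1.60% the octamer, 16.5% the SOX core and 6.02% the E-box. The matching window of *Klf4* (chr4:55532476-55532725, - strand) held 3 GC boxes and an E-box at 182 to 177 bases before the start, next to but not overlapping the GC box at 191 to 183. That of *Sox2* (chr3:34649745-34649994, + strand) held 2 GC boxes and 1 SOX core. GC content was 62% for the printed *Pou5f1* window, 58% for *Pou3f4*, 72% for *Sox2* and 74% for *Klf4*, against a median of 52.4% over all windows. A match is a string of letters, and binding was not measured.

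Levels are log2 values after background correction and quantile normalization (neqc). Detection required a detection p below 0.01, and 11087 to 12128 probes met it on each array, and the lowest detected level on an array was 4.97 to 5.27. All 6 markers of pluripotent cells were detected on the 5 pluripotent arrays and 5 of 6 neural markers in iNSCs and NSCs, with *Pax6* the exception. Of 7 fibroblast markers, 1 to 5 were detected in the 5 pluripotent lines, with summed raw intensities of 824 (ESCs) to 1478 (NSC 2F iPSCs), and *Col1a2* and *Postn* in none of them. All 7 were detected in MEFs, where the sum was 26809. Neither the share of feeder fibroblasts nor its part in the factor levels was tested. In bulk RNA fewer expressing cells and less RNA per cell cannot be told apart. The factor plasmids encode the same mouse genes, and whether a probe binds transgene RNA, endogenous RNA or both was not tested on these arrays. The paper measured transgene RNA in the iNSCs and its clones by qRT-PCR, which is not restated here.

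*Pou5f1* was the one factor gene set apart in every pluripotent line (chromosome 17, 35506032 to 35510777; 2 probes). Its probe 1 stood at 11.90 in iNdiPSC-1, 11.75 in iNdiPSC-4, 12.34 in NSC 2F iPSCs, 12.21 in MEF 4F iPSCs and 12.79 in ESCs, and at 4.42 in iNSCs, 4.23 in NSCs and 6.47 in MEFs, where iNSCs and NSCs were not detected. The pluripotent and somatic samples did not overlap, and the probe was detected in MEFs far below the pluripotent lines. Probe 2 gave the same split, with 11.12 to 12.28 in the 5 pluripotent lines and 6.07 in MEFs, and again no detection in iNSCs or NSCs. Over the 8 arrays the probes correlated at r = 0.997. MEFs thus carried *Pou5f1* signal on both probes with 0 of the 6 other pluripotency markers detected. The annotation lists 7 pseudogenes of *Pou5f1*, and whether they bind these probes was not tested.

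*Sox2*, the partner of OCT4 and a gene of neural stem cells (chromosome 3, 34649995 to 34652461), was shared by every sample but MEFs. Probe 1 stood at 9.82 and 9.72 in iNdiPSC-1 and iNdiPSC-4, 9.31 in NSC 2F iPSCs, 8.74 in MEF 4F iPSCs, 9.51 in ESCs, 9.92 in iNSCs, 9.84 in NSCs and 4.32 (not detected) in MEFs. The 7 samples with signal spanned 1.18 on the log2 scale, with MEF 4F iPSCs lowest. Probe 2 spanned 1.14 over the same 7 samples, from 8.16 in MEF 4F iPSCs to 9.30 in iNSCs, and was not detected in MEFs at 4.43. The order within the 7 differed between the probes except at its ends.

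*Klf4*, part of all 3 cocktails (chromosome 4, 55527137 to 55532475), was the only factor gene detected on all 8 arrays, by 1 of its 3 probes. Probe 1 read 11.27 in iNdiPSC-1, 10.69 in iNdiPSC-4, 9.98 in NSC 2F iPSCs, 8.83 in MEF 4F iPSCs, 10.10 in ESCs, 8.08 in iNSCs, 6.18 in NSCs and 10.66 in MEFs. MEFs, which had received no factors, were thus near the level of iNdiPSC-4, and NSCs were lowest. Probe 2 read 9.10, 8.84, 8.36, 8.78, 8.26, 6.31, 4.80 (not detected) and 9.02 in the same order of samples. Probe 3 ran from 7.13 in ESCs to 7.73 in iNdiPSC-1 over the pluripotent lines, with 5.46 in iNSCs, 4.39 (not detected) in NSCs and 7.51 in MEFs.

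The 3 *Klf4* probes parted at 1 sample. Against ESCs, MEF 4F iPSCs were lower by probe 1 at a log2 difference of -1.27, but stood at 0.52 by probe 2 and 0.28 by probe 3. No other sample had probe 1 on the other side of ESCs from both of the others by more than the 0.12 of NSC 2F iPSCs. Over the 8 arrays probes 2 and 3 correlated at r = 0.998 and probes 1 and 2 at r = 0.924. These r values describe 8 arrays normalized together and carry no test.

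**Figure D1:**
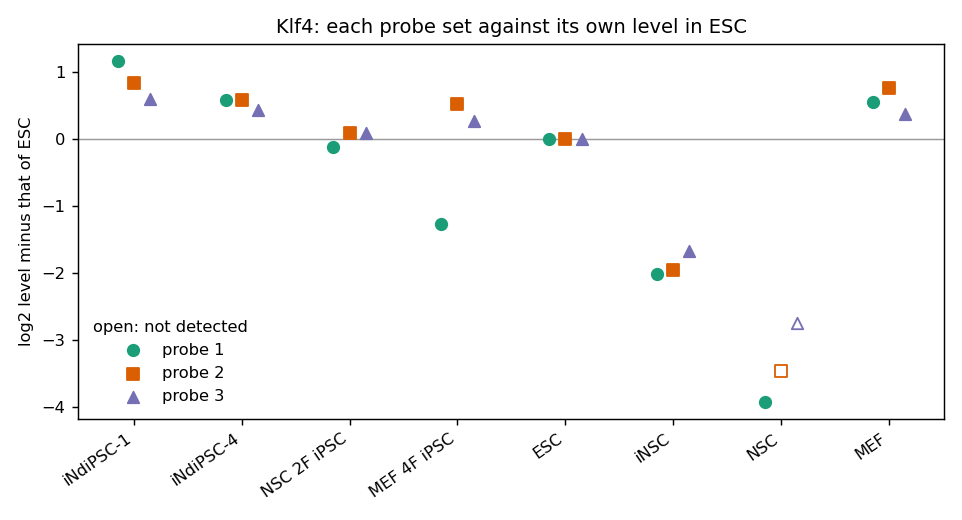
*Klf4* level on each array for 3 probes, as the log2 level minus that of the same probe in ESCs (vertical axis), with open symbols where the probe was not detected. The probes lie close together on most arrays, but in MEF 4F iPSCs probe 1 lies at -1.27 while probes 2 and 3 lie at 0.52 and 0.28.

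*Myc*, whose protein speeds up reprogramming (chromosome 15, 61985341 to 61990361), was detected in MEF 4F iPSCs and NSCs only. By probe 1 MEF 4F iPSCs read 7.10 and NSCs 6.11, while the other 6 samples read 4.75 to 5.13 and were not detected. NSC 2F iPSCs, at 5.13, missed the detection threshold narrowly with a detection p of 0.010. The rest of these samples had a detection p of 0.016 (MEFs) to 0.070 (iNSCs). Probe 2 was detected on none of the 8 arrays (4.21 to 4.30), so the signal rests on 1 probe. MEF 4F iPSCs were made with *Myc*. iNSCs, which were made with it too, read 4.77, and the clones derived from them were among the samples not detected.

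*Pou3f4*, a POU factor gene of the developing brain (chromosome X, 110814379 to 110819108; 1 probe), was detected in iNSCs at 6.63 and in NSCs at 5.48. The other samples read 4.53 in iNdiPSC-1, 4.31 in iNdiPSC-4, 4.31 in NSC 2F iPSCs, 4.37 in MEF 4F iPSCs, 4.31 in ESCs and 4.36 in MEFs, all not detected. The gene was thus seen in the 2 neural samples alone, one of which was made with it. The detected levels are low, as the lowest detected value on any array was 4.97.

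**Figure D2:**
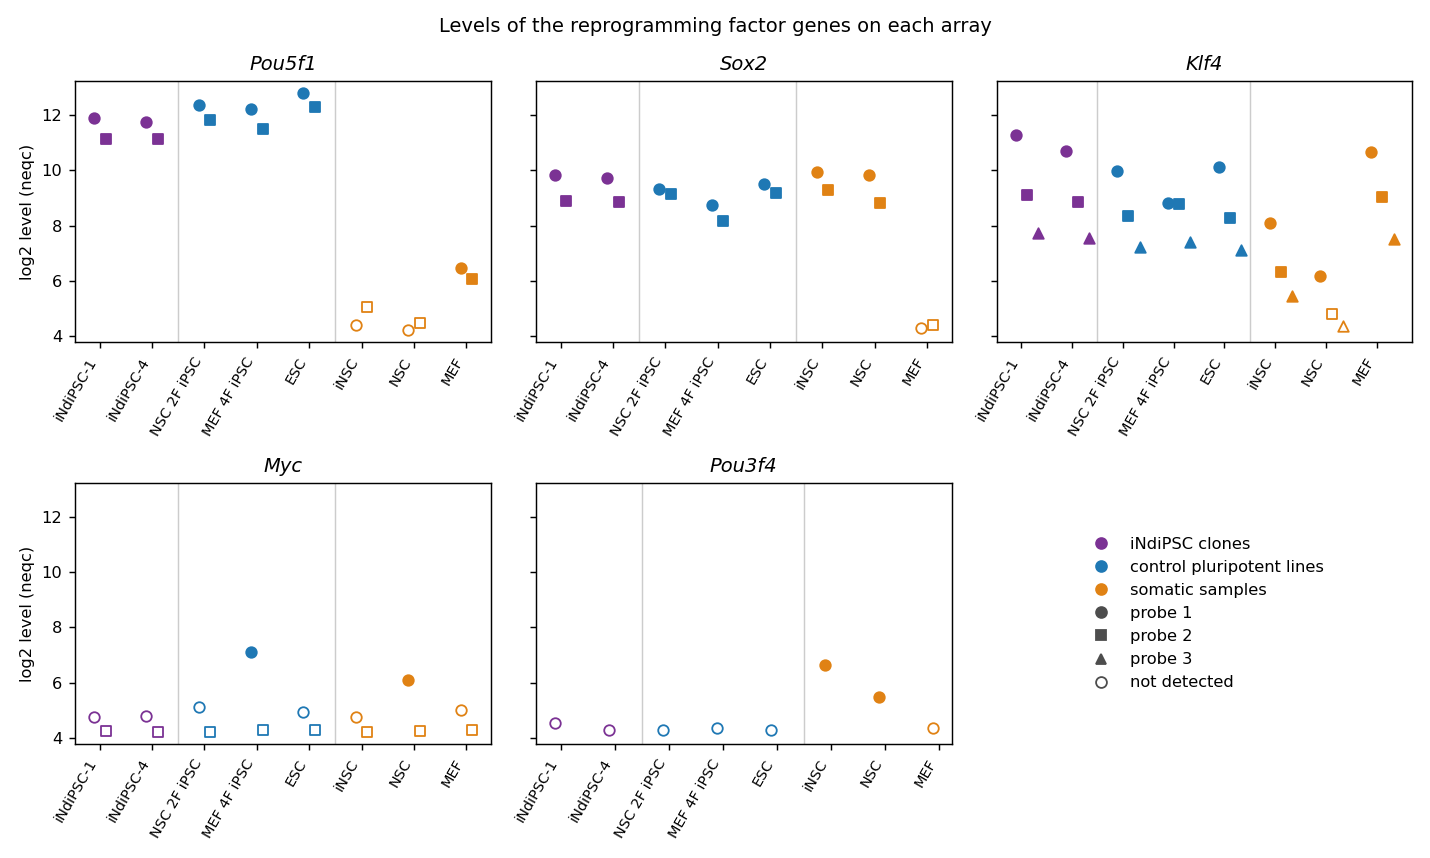
Log2 level (vertical axis) of each probe of the 5 measured factor genes on each of the 8 arrays, in the iNdiPSC clones, the control pluripotent lines and the somatic samples, with open symbols for values not detected. *Pou5f1* separates the pluripotent lines, at 11.12 to 12.79, from the somatic samples, at 6.47 or lower, while *Sox2* lacks signal in MEFs and *Pou3f4* has signal in iNSCs and NSCs.

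Neighbours in the order of levels were set against the difference of the sister clones. As a yardstick, the 95th percentile of the clones' difference was taken over the 500 detected probes nearest in level. It describes the spread between clones and is no test, and spread between separately made lines may be larger. For *Pou5f1* probe 1 the step from ESCs down to NSC 2F iPSCs (0.45, yardstick 0.43) and the step from iNdiPSC-4 down to MEFs (5.28) were beyond it, and the other steps among the pluripotent lines were not. For both *Sox2* probes 1 of 6 steps was beyond it, the one down to MEF 4F iPSCs. For *Klf4* probe 1 it was 5 of 7 steps, among them iNdiPSC-1 over iNdiPSC-4 (0.59, yardstick 0.50), but for probes 2 and 3 only the step from ESCs down to iNSCs was. The yardstick was drawn from differences between these same clones, so the step between them only ranks *Klf4* probe 1 among probes of like level. iNSCs were above NSCs by 1.15 for *Pou3f4* and MEF 4F iPSCs above NSCs by 0.99 for *Myc*, both beyond the yardstick.

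A first fit set the 3 control pluripotent lines against the 3 somatic samples, to see which factor genes mark the pluripotent state. *Pou5f1* rose and no other factor gene passed the test. Of 9 factor probes tested, 2 were called at an adjusted p below 0.05 and a 2-fold difference (limma with Benjamini-Hochberg adjustment), against a background of 22.7% of 13220 probes. Both were of *Pou5f1*, at a log2 difference of 7.41 (SE 0.61, adjusted p = 0.00108) by probe 1 and 6.64 (SE 0.46, adjusted p = 0.000561) by probe 2. With undetected arrays set to their lowest detected value, these differences were of at least 114-fold and at least 82.9-fold. Such bounds hold for neqc values only. Without background correction the log2 differences were smaller, at 5.48 by probe 1 and 4.85 by probe 2. These were also the only 2 of the 9 factor probes whose groups did not overlap, which held for 48.0% of all probes.

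*Sox2* and *Klf4* spread widely among the somatic samples. *Sox2* probe 1 averaged 9.19 ± 0.40 in the control pluripotent lines and 8.02 ± 3.21 in the somatic samples (SD, n = 3 each; log2 difference 1.16, SE 1.48, adjusted p = 0.583 from limma). *Klf4* probe 1 averaged 9.64 ± 0.70 in the control pluripotent lines and 8.30 ± 2.25 in the somatic samples (1.33, SE 1.08, adjusted p = 0.386), and its probes 2 and 3 had log2 differences of 1.76 and 1.47 (adjusted p = 0.227 and 0.185 from limma). These values turned on MEFs and NSCs. Without the MEF array 6 of 9 factor probes were called, but calls over all probes also rose, from 3005 of 13220 to 4492 of 12803. *Klf4* was then higher in the control pluripotent lines by 2.51, 2.91 and 2.33 (adjusted p = 0.0210, 0.00405 and 0.00350) and *Pou3f4* differed by -1.72 (adjusted p = 0.0112 from limma). *Sox2* then turned to -0.69 and -0.23 (adjusted p = 0.106 and 0.654). Without NSCs the *Klf4* differences moved the other way, to 0.27, 0.80 and 0.77 (adjusted p = 0.833, 0.493 and 0.393 from limma). With all 6 arrays *Pou3f4* differed by -1.16 (SE 0.55, adjusted p = 0.164) and *Myc* by 0.42 (SE 0.67, adjusted p = 0.663 from limma).

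The clones were compared with the control pluripotent lines to see whether their factor levels differ from those of other pluripotent cells. No factor probe passed. Of 7 tested, 0 were called by limma, against 1.29% of 12241 probes (0.629% called higher and 0.662% lower), and 3 had an unadjusted p below 0.05, against 18.5%. *Pou5f1* probe 1 averaged 11.82 ± 0.11 in the clones (SD, n = 2) and 12.45 ± 0.30 in the control pluripotent lines (SD, n = 3), a log2 difference of -0.62 (SE 0.23, adjusted p = 0.217 from limma), and probe 2 gave -0.73 (SE 0.26, adjusted p = 0.214). *Klf4* probe 1 averaged 10.98 ± 0.42 in the clones and 9.64 ± 0.70 in the control pluripotent lines, a difference of 1.34 (SE 0.42, adjusted p = 0.172), and probes 2 and 3 gave 0.50 and 0.39 (adjusted p = 0.288 and 0.303 from limma). For 6 of the 7 probes the groups did not overlap, beside 40.9% of all probes. *Sox2* differed by 0.58 (SE 0.26, adjusted p = 0.293) by probe 1 and by 0.06 (SE 0.33, adjusted p = 0.936 from limma) by probe 2, the probe whose groups overlapped. Strain differs between these groups in every array and cannot be told apart from the way the cells were made. Both fits use the same 3 control lines.

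**Figure D3:**
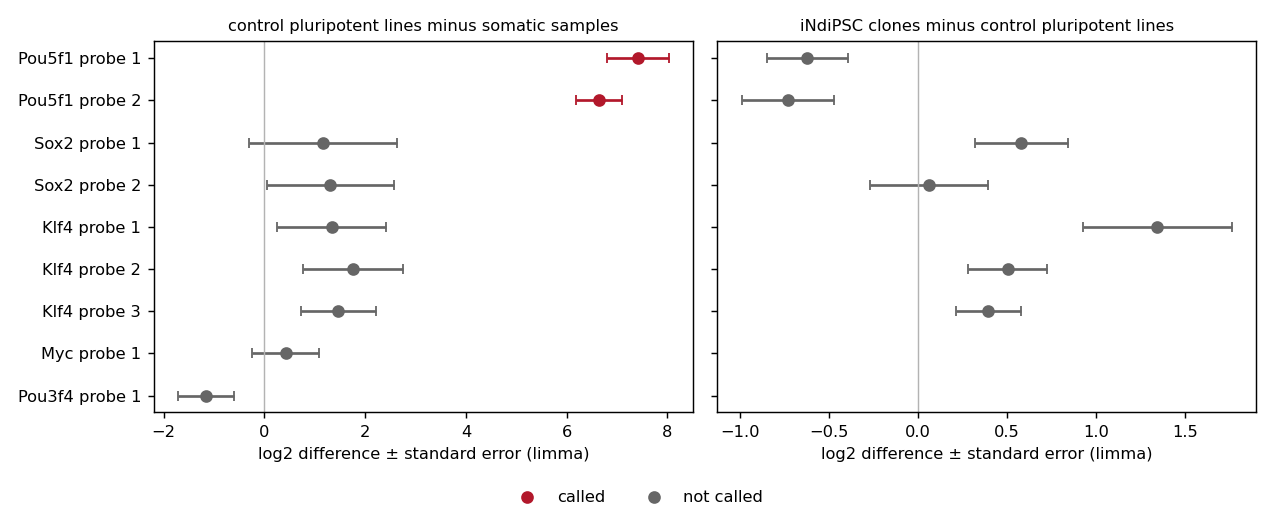
Log2 difference of each factor probe with its standard error (horizontal axes) from limma, for the control pluripotent lines minus the somatic samples (left) and the iNdiPSC clones minus the control pluripotent lines (right, on a narrower scale). The 2 *Pou5f1* probes on the left, at 7.41 and 6.64, are the only ones called.

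Each reprogrammed sample was then set against its donor cell type, which gives the difference in each factor gene between derived and donor-type cells. Such a difference can also hold culture, feeder cells or, for iNSCs against MEFs, strain, and these were not separated. These are single arrays, so no p-value is given. In MEF 4F iPSCs against MEFs, *Pou5f1* was 53.6-fold higher by probe 1, *Sox2* at least 12.5-fold higher and *Myc* at least 4.03-fold higher. *Klf4* was 3.55-fold lower in MEF 4F iPSCs by probe 1, but 1.18-fold and 1.07-fold lower by probes 2 and 3. Of 8 factor probes detected on either array, 5 were at least 2-fold higher and 1 at least 2-fold lower, and 45.6% of all such probes passed 2-fold.

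NSC 2F iPSCs against NSCs gave another set of differences. *Pou5f1* was at least 141-fold higher by probe 1 and *Klf4* 13.9-fold higher, both being factors these cells were given. *Sox2*, which was not added, differed by -0.52 by probe 1 and 0.32 by probe 2 on the log2 scale. *Myc* was at least 1.94-fold lower and *Pou3f4* at least 1.25-fold lower in NSC 2F iPSCs, where neither was detected. Over all probes 40.6% passed 2-fold.

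The clones against iNSCs were like NSC 2F iPSCs against NSCs in that *Pou5f1* and *Klf4* were higher and *Sox2* stayed within 2-fold. *Pou5f1* probe 1 was at least 106-fold higher in iNdiPSC-1 and at least 94.9-fold higher in iNdiPSC-4, and *Klf4* probe 1 was 9.18-fold and 6.10-fold higher in the same clones. *Sox2* differed by -0.10 and -0.20 by probe 1 and by -0.41 and -0.43 by probe 2, on the log2 scale. Probe 2 went the other way in NSC 2F iPSCs against NSCs, at 0.32. *Pou3f4*, detected in iNSCs, was at least 2.93-fold lower in iNdiPSC-1 and at least 2.97-fold lower in iNdiPSC-4. In each clone 5 of 8 factor probes were at least 2-fold higher and 1 lower, beside 45.8% and 45.4% of all probes past 2-fold. *Myc* was not detected in the clones or in iNSCs.

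In iNSCs against MEFs, *Sox2* was at least 28.3-fold higher by probe 1 and *Pou3f4* at least 2.90-fold higher, both being genes of the iNSC cocktail. *Klf4*, another gene of that cocktail, was 5.97-fold lower by probe 1, 6.56-fold by probe 2 and 4.13-fold by probe 3. *Pou5f1* was at least 2.45-fold lower in iNSCs by probe 1, and 36.8% of all probes passed 2-fold. Against brain-derived NSCs, iNSCs were 3.72-fold higher for *Klf4* probe 1 and 2.22-fold higher for *Pou3f4*, 1.06-fold higher for *Sox2* probe 1 and at least 1.91-fold lower for *Myc*, with 19.0% of all probes past 2-fold. The strain differs in both of these comparisons. NSCs against MEFs, which share a strain, had *Sox2* probe 1 at least 26.8-fold higher and *Klf4* probe 1 22.2-fold lower, with 37.6% of all probes past 2-fold.

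**Figure D4:**
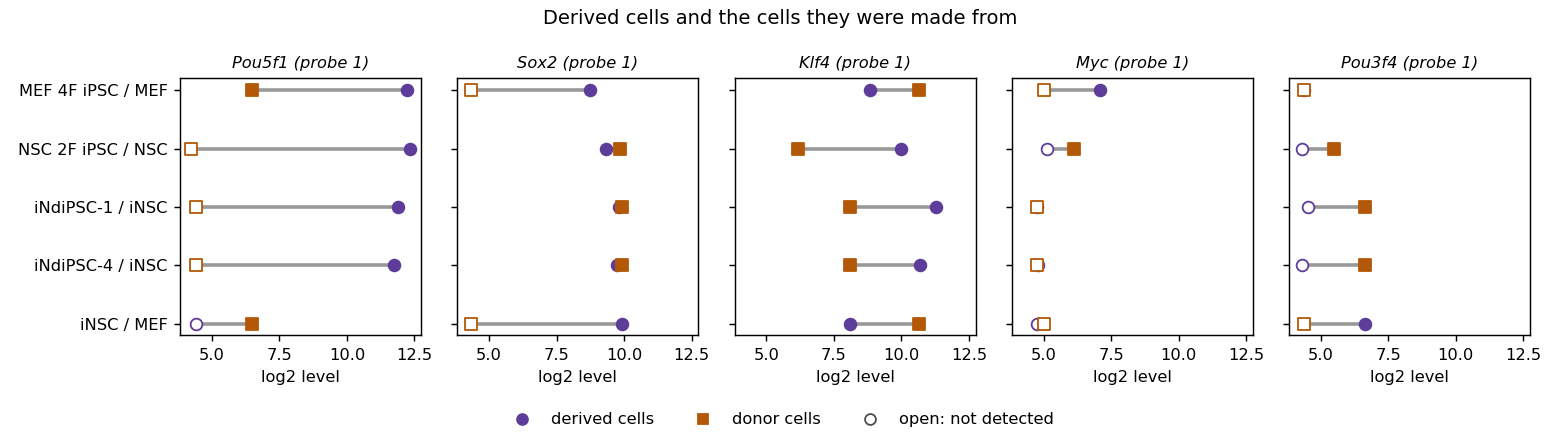
Log2 level (horizontal axes) of probe 1 of each factor gene in derived cells (circles) and in the donor cell type (squares), joined by a line, with open symbols where not detected. *Pou5f1* is higher in the 4 pluripotent samples, while the *Klf4* line runs to lower levels in MEF 4F iPSCs and iNSCs against MEFs and to higher levels in the other pairs.

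Against ESCs, factor probes passed 2-fold in all of the iPSC lines but NSC 2F iPSCs. NSC 2F iPSCs had 0 of 7 factor probes past 2-fold (6.76% of all probes), with *Pou5f1* probe 1 at -0.45, *Sox2* probe 1 at -0.20 and *Klf4* probe 1 at -0.12. MEF 4F iPSCs had *Myc* at least 3.56-fold higher, *Klf4* probe 1 2.41-fold lower and *Sox2* probe 2 2.03-fold lower (10.0% of all probes). In iNdiPSC-1 *Klf4* probe 1 was 2.26-fold higher and *Pou5f1* probe 2 2.23-fold lower than in ESCs (13.8% of all probes). In iNdiPSC-4 *Pou5f1* was 2.05-fold lower by probe 1 and 2.23-fold by probe 2 (11.3%), and *Klf4* probe 1 stood at a log2 difference of 0.59. Of the factors that MEF 4F iPSCs but not NSC 2F iPSCs were given, *Sox2* stood at -0.58 and -0.97 by its 2 probes in MEF 4F iPSCs against NSC 2F iPSCs and *Myc* was at least 3.86-fold higher (6.42% of all probes past 2-fold). Between the clones 0 of 7 factor probes differed by 2-fold, with 0.566% of all probes past it.

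Relatives of the factors in the same families were also examined, each gene by its brightest probe. Among POU genes, 8 of 13 were on the array and 0 of the 5 tested passed in the control pluripotent lines against the somatic samples by limma (5 not passed; 12.7% of all probes were called higher and 10.0% lower). *Pou3f3*, a close relative of *Pou3f4*, was likewise detected in iNSCs (5.84) and NSCs (6.16) alone. *Pou3f1* stood at 7.15 and 7.08 in the clones, 7.70 in NSC 2F iPSCs, 8.87 in MEF 4F iPSCs, 7.54 in ESCs and 8.47 in NSCs, and was not detected in iNSCs or MEFs. Of SOX B genes, *Sox3* was detected in iNSCs (7.01) and NSCs (6.19) alone and *Sox21* stood at 7.25 to 7.76 in the pluripotent lines, 12.49 in iNSCs and 11.33 in NSCs, while *Sox1* was not detected on any array. Neither of the 2 tested passed with all arrays, but both were called lower in the control pluripotent lines without MEFs. Without MEFs 2 POU genes were called lower, and without NSCs or without iNSCs 1 was called higher. Over all probes 4492 of 12803 were called without MEFs, 3260 of 12657 without NSCs and 2313 of 12582 without iNSCs, higher or lower. With all arrays it was 3005 of 13220.

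Among KLF genes 3 of 10 tested rose in the control pluripotent lines and none fell, beside 12.7% of all probes called higher and 10.0% lower. Without MEFs 4 rose and 1 fell, beside 4492 of 12803 probes called in either direction. *Klf2* stood at 11.16 in NSC 2F iPSCs, 9.75 in MEF 4F iPSCs and 10.63 in ESCs, and at 5.59 in iNSCs, 5.71 in NSCs and 8.27 in MEFs (15.9-fold higher, adjusted p = 0.0157 from limma). For *Klf5* the difference was at least 54.7-fold (adjusted p = 0.00102) and for *Klf9* 5.82-fold (adjusted p = 0.0497 from limma). Unlike *Klf4*, *Klf2* and *Klf5* were thus lower in MEFs than in every pluripotent line, at 8.27 and 6.76. The list's median log2 difference was 0.12, beside 0.03 over all probes. *Klf2* lost its call when NSC 2F iPSCs or ESCs were left out, and *Klf9* did so under 9 of 13 alternatives, among them leaving out NSCs or any 1 of the control lines. In the clones against the control pluripotent lines 0 of 10 passed, beside 1.29% of all probes.

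In the MYC and MAX network (11 of 11 on the array) 1 of 8 tested genes fell, *Mxd4*, which encodes a repressor that competes with MYC for MAX. That share is near the 10.0% of all probes called lower, and the median log2 difference of the list was -0.0028, beside 0.03 over all probes. Without MEFs 3 fell, beside 4492 of 12803 probes called in either direction. *Mxd4* was detected in no pluripotent line, and in iNSCs at 7.48, NSCs at 6.44 and MEFs at 7.78 (at least 4.30-fold lower in the control pluripotent lines, with an adjusted p of 0.00682 from limma). *Mycl* stood at 6.86 to 7.24 in the pluripotent lines, 9.71 in iNSCs and 7.86 in NSCs and was not detected in MEFs, *Max* varied by little, from 9.68 in NSCs to 10.43 in iNdiPSC-4, and *Mycn* was not detected on any array. Among E proteins and their partners, the family of *Tcf3*, 4 of 11 tested fell and none rose, with a list median of -1.72. *Tcf4* was 11.3-fold lower in the control pluripotent lines (adjusted p = 0.00861), *Tcf12* 6.40-fold lower (adjusted p = 0.0194), *Id3* 3.30-fold lower (adjusted p = 0.0243) and *Id4* lower by at least 6.03-fold (adjusted p = 0.0112 from limma). In the clones *Tcf4* stood at 10.05 and 9.61, against 13.58 in iNSCs. Without MEFs 7 of the 11 were called lower, and without NSC 2F iPSCs only *Tcf4* was, where 1030 of 13000 probes were called. In the clones against the control pluripotent lines 1 of 9 fell, *Olig1*, beside 0.662% of all probes called lower. This call was lost without background correction, without a detection filter and with either clone left out, which leaves a lone clone.

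**Figure D5:**
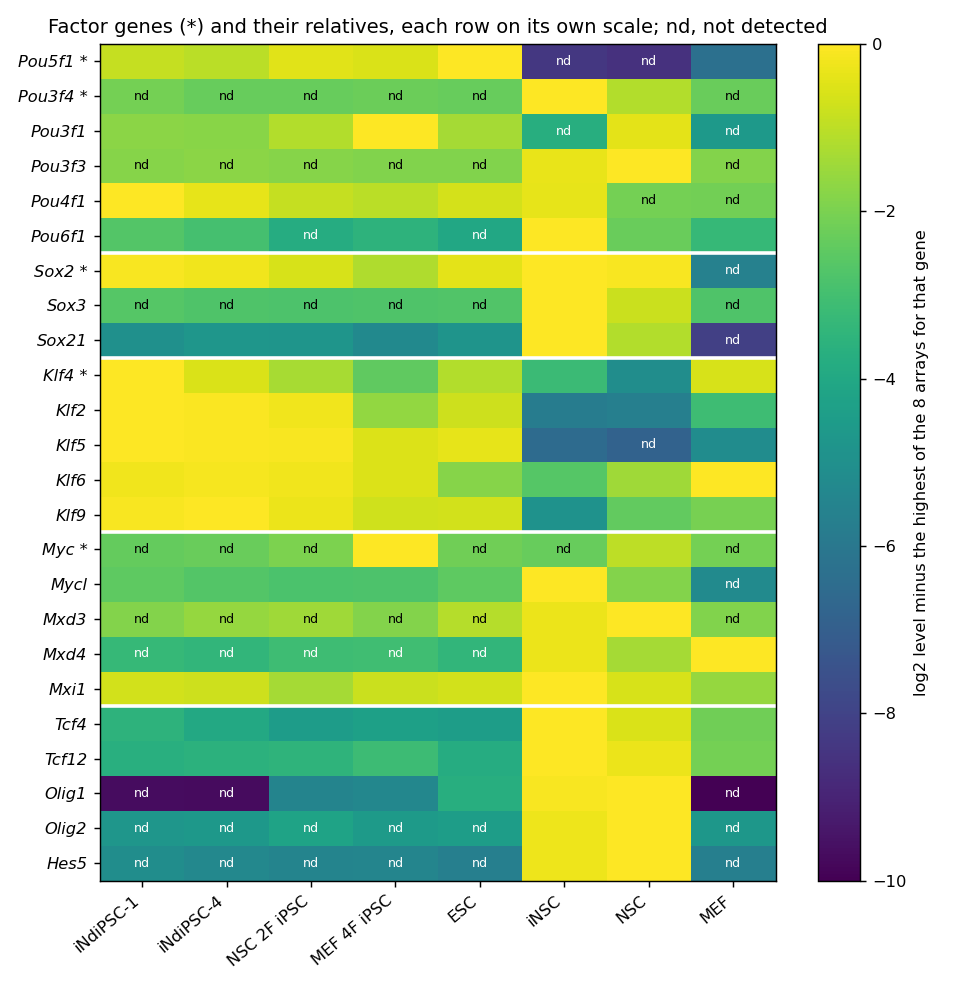
Factor genes (asterisks) and relatives of each family on the 8 arrays, coloured by log2 level minus that gene's highest array, with nd for values not detected. *Pou3f3* and *Sox3* share with *Pou3f4* detection in iNSCs and NSCs only, and *Klf2* and *Klf5* are high in the pluripotent lines and lower in MEFs, where *Klf4* is high.

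Genes known as targets of the factors were described in the same way. Of 11 measured targets of OCT4 and SOX2, 10 rose in the control pluripotent lines, beside 12.7% of all probes, with a list median of 5.54. In the clones against those lines 0 of the 11 passed, beside 1.29% of all probes. The difference was at least 158-fold for *Dppa4* (adjusted p = 4.65e-05) and at least 35.9-fold for *Utf1*, a chromatin factor gene with a known OCT4 and SOX2 element (adjusted p = 9.48e-05 from limma). *Upp1* lost its call when NSC 2F iPSCs or ESCs were left out, and the other 9 were called with any 1 array left out. *Lefty1* read 9.42 to 10.34 in the pluripotent lines and was, like *Pou5f1*, detected in MEFs, at 5.64. *Trp53inp1* was the one that did not pass (10.15 to 11.58 in the pluripotent lines and 9.82 to 10.74 in the somatic samples). Several of these targets are also pluripotency markers, so they are no independent evidence of factor activity.

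Of 14 measured targets of MYC, 8 rose and 1 fell in the control pluripotent lines. *Myc* itself was detected in 1 of these lines, by its probe 1 only. Over all probes 12.7% were called higher and 10.0% lower, and the list median was 1.46 beside 0.03. *Hk2*, which encodes a hexokinase, was 14.3-fold higher (adjusted p = 0.00404), *Cad*, an enzyme of pyrimidine synthesis, 3.46-fold higher (adjusted p = 0.0204) and *Odc1*, an enzyme of polyamine synthesis, 2.87-fold higher (adjusted p = 0.0342 from limma). The member that fell was *Ccnd2*, which encodes a D-type cyclin, 17.9-fold lower (adjusted p = 0.0393 from limma), with 13.22 in MEFs and 12.16 in NSCs. It lost its call under 6 of 13 alternatives, among them leaving out NSCs or any 1 of the control lines. *Hk2* stood at 11.25 and 11.33 in the clones, 11.44 in NSC 2F iPSCs, 11.86 in MEF 4F iPSCs and 11.85 in ESCs. Whether the *Myc* level plays a part in the levels of these targets was not tested. Without any 1 of the 3 control pluripotent lines *Hk2* was the only one of the 8 still called, and without iNSCs 4 were. Calls over all probes fell too, from 3005 of 13220 with all arrays to 2313 of 12582 without iNSCs. They were 1030 of 13000 without NSC 2F iPSCs, 1529 of 12862 without MEF 4F iPSCs and 1263 of 13042 without ESCs. None of the 14 passed in the clones against the control pluripotent lines, beside 1.29% of all probes. Of 7 cell cycle inhibitor genes, some of them known targets of E proteins, 2 fell, *Cdkn2a* (7.16-fold lower, adjusted p = 0.0248) and *Cdkn2c* (lower by at least 11.8-fold, adjusted p = 0.0188 from limma). Neither was called without iNSCs or without any 1 of the control lines, where calls over all probes fell as given above. Without MEFs 4 fell and 1 rose, beside 4492 of 12803 probes called in either direction.

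Genes most like probe 1 of each factor in pattern over the 8 arrays were found by Pearson's r of log2 levels among 6190 genes. For *Pou5f1* these were *Llgl2* (r = 0.995), *Csrp2* (0.995) and *F11r* (0.993). *Llgl2* was, like it, not detected in iNSCs or NSCs but was detected in MEFs, at 7.15. For *Sox2* they were *Kif18b* (0.994), *Tgif2* (0.993) and *Nusap1* (0.987), for *Klf4* *Fzd7* (0.976), *Pdgfa* (0.967) and *Kdsr* (0.966), and for *Pou3f4* *Zfp113* (0.998), *Cntn1* (0.996) and *Ntsr2* (0.995). For *Myc* they were *Cldn11* (0.937), *Tafa4* (0.931) and *Prss22* (0.930), of which *Cldn11* read 10.83 in MEF 4F iPSCs, 5.68 in NSCs, and was detected on no other array. With 8 arrays, many of them undetected for *Myc* and *Pou3f4*, such values describe shape only and carry no test. The *Klf4* probe used here is the one that parted from the other *Klf4* probes in MEF 4F iPSCs.

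*Tcf7l1*, which carries *Tcf3* as an older symbol and encodes another protein, a repressor of the Wnt pathway, was not counted as a member. Its probe 1 stood at 11.07 and 11.13 in the clones, 10.84 to 11.31 in the control pluripotent lines, 10.84 in iNSCs, 9.37 in NSCs and 10.31 in MEFs. Its probe 2 was detected in NSC 2F iPSCs only, at 5.20, and read 4.28 to 4.93 elsewhere, so the signal rests on probe 1.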

How the data were processed

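Total RNA of 8 mouse samples was hybridised to Illumina bead arrays, 1 array each. The main table that the authors deposited is a BeadStudio 3.2 export of linear probe intensity (mean over beads, not normalized), with a detection p-value beside each intensity, as deposited in steps of 0.00125. A second deposited table holds log2 values, for which RMA and lumi are named. No parameters are given in the sources used here. Its columns keep the ranks of the scanner values (Spearman correlation 1), so direction is known, but the order of background and normalization steps is not.

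Intensities were processed with neqc in limma 3.58.1 (R 4.3.3; offset 16). Probes detected (p below 0.01) on at least 2 arrays of a comparison were fitted with lmFit and eBayes and a probe was called where the p adjusted by Benjamini-Hochberg was below 0.05 and the difference at least 2-fold. The fits were tested on simulated data. Folds against undetected arrays use their lowest detected value as a floor, and are written "at least". They are bounds within neqc and can be smaller under other processing. Groups hold different lines, so p-values measure only the spread between these samples, and the number of arrays limits the precision. No scan date or slide is given. The factors and the gene lists were chosen with earlier results of these data known. All factor probes are named. From lists, the genes with the largest range and those a count turned on are named. The alternatives tried were 75th percentile scaling, no background correction, the deposited log2 matrix, other filters, 1 probe for each gene, a 4-fold threshold and leaving out each array. Motifs were searched in RefSeq promoters of GRCm38.p6, which held a window for 5 of the 6 factors, and genes were named by the platform annotation.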

Additional observations from a re-analysis of the deposited data

Results flagged for a closer look

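*Klf4* probe 1 differed in opposite directions between derived pluripotent cells and their donor cell types. MEF 4F iPSCs stood at a log2 difference of -1.83 against MEFs and NSC 2F iPSCs at 3.8 against NSCs. The iNdiPSC clones stood at 2.9 (mean of the clones) against iNSCs. Each value rests on 1 donor array and the difference between these pairs was not tested. By probes 2 and 3 MEF 4F iPSCs were at -0.24 and -0.10 against MEFs.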

How the results depend on the processing

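*Pou5f1* stayed called in the control pluripotent lines against the somatic samples under all 13 alternatives (12 for probe 2, which the choice of 1 probe for each gene leaves out), and factor probes called in the clones stayed at 0. Over the tested factor differences 182 values kept their direction and side of the threshold, 4 became calls and 3 turned. These 3 were of *Sox2*. With 1 array left out it ranged from -0.69 (without MEFs) to 2.11 by probe 1 and from -0.23 (without MEFs) to 2.20 by probe 2 in the control pluripotent lines, and from -0.27 (without MEF 4F iPSCs) to 0.24 by probe 2 in the clones. Of the single-array differences 143 moved by less than the spread of the clones and 88 by more, and 0 of 2-fold size turned. Without background correction *Sox2* probe 1 differed by 3.31 in iNSCs against MEFs, beside 5.60 with neqc. In MEF 4F iPSCs against MEFs it was 2.28, beside 4.42. Of the called list genes 80 of their values under alternatives lost the call and 309 kept it. Leaving out arrays, 2 to 6 factor probes were called in the control pluripotent lines (6 without MEFs). Counts over all probes moved more. For the control pluripotent lines against the somatic samples, 3005 probes were called, 1637 without background correction, 1147 at 4-fold, and 1030 (without NSC 2F iPSCs) to 4492 (without MEFs) with 1 array left out. For the clones, 158 were called, 60 without background correction, 99 without a detection filter, 98 with 1 probe for each gene, 55 at 4-fold, and 6 (without iNdiPSC-1) to 173 (without ESCs) with 1 array left out, the lone clone then being assumed to vary like the control lines. The causes were not tested, apart from fewer probes passing a stricter fold. No paired analysis was run. Each group but the 2 clones holds 1 array, and donor and derived cells were compared as single arrays only. The first fit did not use the link between donor cells and the lines made from them. *Myc* and *Pou3f4* lie near background, which limits their folds.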
